A study of Mus musculus with 12 samples.

Results

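Synaptic vesicle and presynaptic release genes were followed in N2a cells, a mouse neuroblastoma line of neural crest origin, by RNA sequencing of polyadenylated RNA. The group comprises 38 genes, chosen by name from textbook roles in vesicle structure, membrane fusion and the active zone, out of 24318 gene rows in each deposited expression table. The genes were chosen with earlier results of these data known, and all 38 names were found in both tables. The 3 treatments, with 4 libraries each, were SE-BDEV, CON-BDEV and Vehicle, where BDEVs are brain-derived extracellular vesicles, membrane particles shed by cells. All libraries came from the same line, with no other agent or allele named. The title of the series ties SE to status epilepticus, a prolonged seizure, and asks whether it changes what brain vesicles do; CON is not spelled out in the sources used here. Vesicle dose, exposure time, and whether libraries came from separate cultures or vesicle preparations are not given either. The p-values therefore measure the spread between these libraries, which may be technical. Library names number the vesicle libraries 1 to 8, with SE-BDEV and CON-BDEV in turn, and the Vehicle libraries 9 to 12. What the numbers stand for is not given. A difference that goes with this numbering cannot be told apart from one between vesicles and Vehicle.

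A nerve terminal stores transmitter in synaptic vesicles, loaded by transporters in the vesicle membrane and tethered by synapsins. Rab3 proteins and the active zone scaffolds (RIM, Munc13, Bassoon, Piccolo) bring vesicles to the release site and prime them. Fusion is driven by the SNARE proteins synaptobrevin (Vamp), syntaxin and SNAP-25, clamped and assisted by complexins, timed by the calcium sensor synaptotagmin, and reset by NSF with its SNAP adaptors. Neuroblastoma cells carry much of this set without forming synapses, and they use part of it to release dense-core granules.

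Levels are in FPKM (fragment counts divided by transcript length and by library depth), so that genes can be set beside each other. Depth, estimated from the smallest nonzero values, was 13000000 to 15600000 fragments in SE-BDEV, 12900000 to 14500000 in CON-BDEV and 15100000 to 16700000 in Vehicle libraries. Of 11 sympathetic neuron and neuroblastoma markers, 10 averaged 1 FPKM or more, led by Tubb3, Hand2 and Stmn2, and the list summed to 780 to 887 FPKM in SE-BDEV, 835 to 912 FPKM in CON-BDEV and 837 to 868 FPKM in Vehicle libraries. The 8 forebrain neuron markers summed to 12.1 to 14.2 FPKM in SE-BDEV, 11.9 to 13.9 FPKM in CON-BDEV and 12.8 to 14.5 FPKM in Vehicle libraries. Neurod6, a marker of cortical neurons, was listed at 0 in all 12 libraries. The 6 astrocyte markers summed to 0.744 to 1.09 FPKM in SE-BDEV, 0.722 to 0.902 FPKM in CON-BDEV and 1.02 to 1.25 FPKM in Vehicle libraries. The oligodendrocyte, microglia and endothelial lists had 2 of 6, 1 of 5 and 1 of 5 markers at 1 FPKM or more. In bulk RNA, fewer cells that express a gene and less RNA per cell cannot be told apart.

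Promoters are shown for the 2 members that passed the test in any comparison, Syn2 and Unc13a, and for Syn1, the nearest relative of Syn2, which did not. Each runs from 250 bases before to 50 bases after the RefSeq gene start (build GRCm38.p6, a later build than the mm9 of the expression tables), 5′ to 3′ on the strand of the gene. Capitals mark the letters GGGCGG (the GC box), TGACGTCA (the cAMP response element) or TTCAGCACC (the first part of the element bound by REST, a repressor of neuronal genes), searched on both strands; no matches overlap in these windows.
Syn2 (chr6:115134652-115134951, plus strand): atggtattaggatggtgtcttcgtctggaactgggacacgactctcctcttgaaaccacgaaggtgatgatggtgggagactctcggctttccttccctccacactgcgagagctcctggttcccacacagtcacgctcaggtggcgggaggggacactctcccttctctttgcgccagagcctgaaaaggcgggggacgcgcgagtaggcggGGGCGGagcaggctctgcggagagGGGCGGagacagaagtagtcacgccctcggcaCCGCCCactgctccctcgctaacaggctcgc
Syn1 (chrX:20920869-20921168, minus strand): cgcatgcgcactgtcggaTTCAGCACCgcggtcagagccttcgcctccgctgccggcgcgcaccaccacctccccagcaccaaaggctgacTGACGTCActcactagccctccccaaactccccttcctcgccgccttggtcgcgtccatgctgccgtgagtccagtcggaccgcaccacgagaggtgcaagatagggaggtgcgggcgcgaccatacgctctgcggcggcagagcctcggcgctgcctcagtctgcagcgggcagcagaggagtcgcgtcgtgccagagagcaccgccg
Unc13a (chr8:71671708-71672007, minus strand): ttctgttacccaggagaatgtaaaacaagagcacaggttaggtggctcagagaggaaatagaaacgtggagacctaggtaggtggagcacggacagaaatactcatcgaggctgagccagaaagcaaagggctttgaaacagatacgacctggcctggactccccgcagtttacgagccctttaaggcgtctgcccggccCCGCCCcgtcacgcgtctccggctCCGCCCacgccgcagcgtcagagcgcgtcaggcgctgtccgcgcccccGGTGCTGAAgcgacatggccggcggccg
The Syn2 window held 3 GC boxes and neither of the other motifs. The Syn1 window held 1 cAMP response element and 1 REST partial element and no GC box. The Unc13a window held 2 GC boxes and 1 REST partial element, both read on the opposite strand. RefSeq promoters were matched for 30 of the 38 genes, which are not the same 30 genes as those tested for expression. They include the 8 genes under 1 FPKM and lack Snap25, Vamp2, Rims2, Syt4, Syt5, Syt7, Syn3 and Syngr3. GC boxes lay in 24 of these 30 windows (80.0%), against 35.9% of the 27025 promoters searched, which were not limited to genes expressed in N2a cells. TGACGTCA lay in Syn1 and Napa, 6.67% of the 30 windows against 1.85% of all. TTCAGCACC lay in Syn1 and Unc13a, 6.67% of the 30 windows against 0.370% of all. A match is a run of letters, not a bound site.

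N2a cells expressed most of the 38 genes, and in some families of the set 1 relative was expressed and another was not. Of the 38 genes, 30 averaged 1 FPKM or more across the libraries, with a median of 25.0 FPKM and a highest mean of 89.0 FPKM for Cplx1, the complexin of fast release. The other 8 stayed between 0 and 0.215 FPKM in every library and were listed at 0 in 25 of their 96 values. The lowest member above the 1 FPKM line was Syn3, at 1.34 FPKM, and the highest below it was Rab3b, at 0.0985 FPKM (means of 12 libraries). Among the active zone genes of the set the split ran through each family, though the set does not hold every relative. Unc13a averaged 35.5 FPKM over the 12 libraries and Unc13b 0.0235 FPKM. Rims2 averaged 19.1 FPKM and Rims1 0.0183 FPKM. Bsn, which encodes Bassoon, averaged 3.47 FPKM, while Pclo, which encodes its relative Piccolo, averaged 0.00307 FPKM. Sv2c and Sv2a, glycoproteins of the vesicle membrane, averaged 47.8 and 8.95 FPKM, against 0.0134 FPKM for Sv2b. Rab3c and Rab3a averaged 43.2 and 20.1 FPKM, against 0.0985 FPKM for Rab3b, and the Rab3 effector gene Rph3a averaged 0.0598 FPKM. Both transmitter transporters of the set were near 0 throughout: Slc18a3, which loads acetylcholine, averaged 0.0657 FPKM and Slc17a6, which loads glutamate, 0.0114 FPKM. Outside the set, Slc18a2, the vesicular monoamine transporter and a gene of a second list of presynaptic genes, averaged 25.7 FPKM in SE-BDEV, 26.2 FPKM in CON-BDEV and 23.8 FPKM in Vehicle. The deposited locus of Slc18a3 is shared with Chat, whose group means were at most 0.0632 FPKM.

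**Figure D1:**
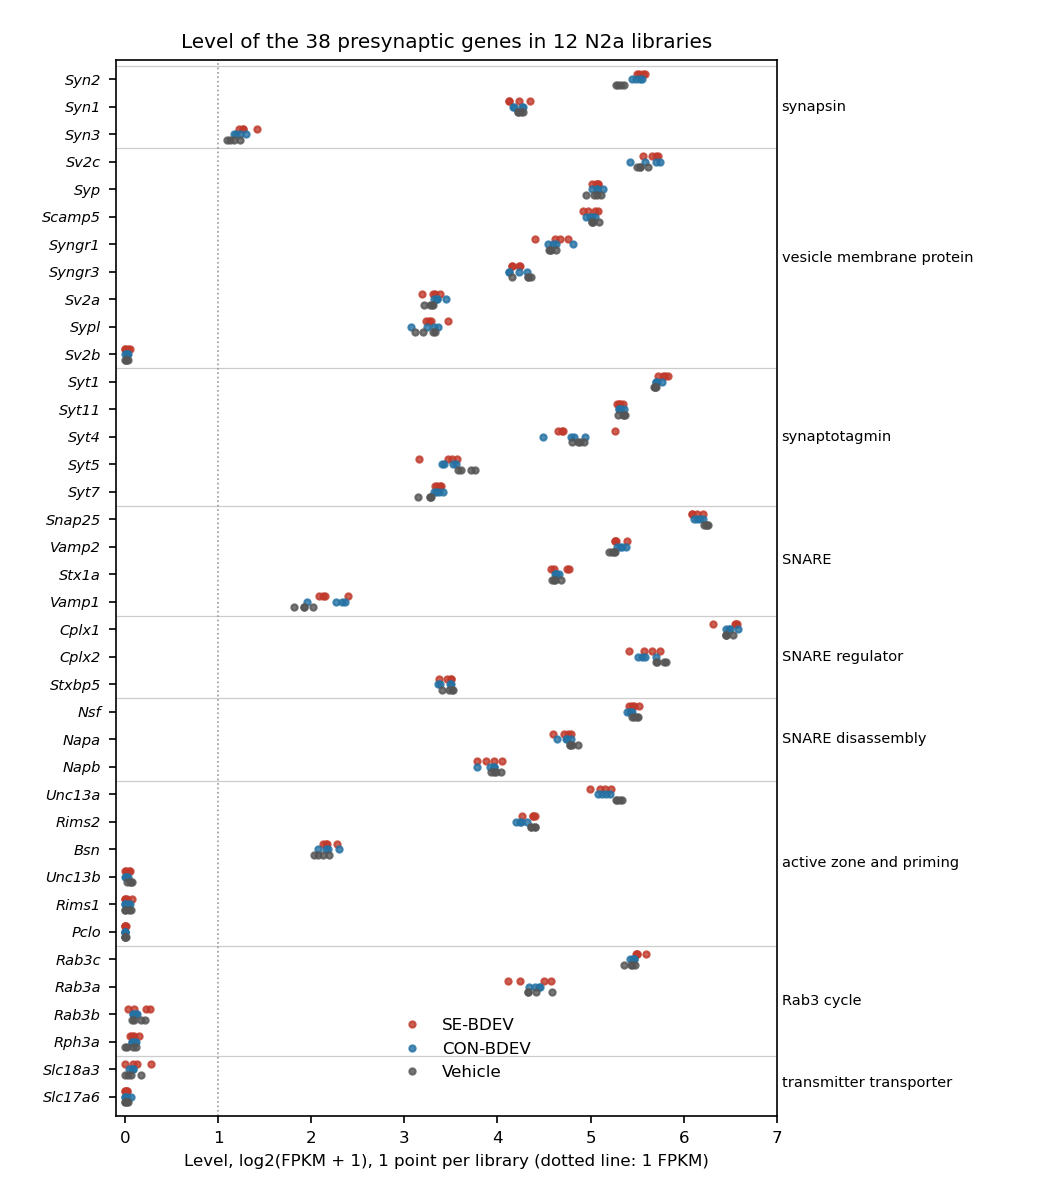
Level of each of the 38 genes as log2(FPKM + 1) on the horizontal axis, with genes grouped by role down the page and 1 point per library (4 SE-BDEV, 4 CON-BDEV, 4 Vehicle). The 8 genes below 1 FPKM lie at the left edge in all 3 groups, and the other 30 spread over a far wider range between genes than any 1 gene does between groups.

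The 4 SNAREs and their partners were all above 1 FPKM. Over the 12 libraries, Snap25, the plasma membrane SNARE, averaged 71.4 FPKM, Vamp2 38.03 FPKM, Stx1a 24.0 FPKM and Vamp1 3.35 FPKM. Nsf, the ATPase that pulls used SNARE complexes apart, averaged 42.8 FPKM, and its adaptors Napa and Napb 25.9 and 14.3 FPKM. In Vehicle libraries Cplx1 (86.3 to 91.6 FPKM), Snap25 (73.6 to 75.6 FPKM) and Cplx2 (51.2 to 55.0 FPKM) were highest, in that order, with ranges that did not meet. The summed level of the 38 genes was 841 to 881 FPKM in SE-BDEV, 848 to 861 FPKM in CON-BDEV and 856 to 873 FPKM in Vehicle libraries, ranges that overlap.

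The question put to the data was whether either kind of brain vesicle changed these genes, and it was tested gene by gene on log2(FPKM + 1) with limma across all genes that averaged 1 FPKM or more, at a Benjamini-Hochberg adjusted p of 0.05. With SE-BDEVs, 1 of the 30 tested members rose and 0 fell, against 0.292% of 11311 genes that rose and 0.628% that fell (0.919% in either direction). At an unadjusted p under 0.05, 6 of the 30 were higher and 4 lower, where 14.8% of all genes passed in either direction. With CON-BDEVs, 1 of 30 rose and 1 fell, against 1.02% and 1.82% of 11320 genes (2.84% in either direction). Unadjusted, 4 were higher and 5 lower, where 19.1% of all genes passed. Without a test, 15 of the 30 had a higher mean log2 level than Vehicle in each comparison, where 54.6% of all genes did with SE-BDEVs and 52.0% with CON-BDEVs. The median log2 fold change of the members was 0.0038 for SE-BDEV and 0.0045 for CON-BDEV, beside 0.0094 and 0.0043 over all genes tested. The median absolute change was 0.070 for the members in both, beside 0.059 and 0.058 over all genes. No member changed by 1.5-fold or more in any of the 3 comparisons. Of the 10 sympathetic neuron and neuroblastoma markers tested, 2 rose and 0 fell with SE-BDEVs, and 5 rose and 1 fell with CON-BDEVs. Dbh and Ddc, enzymes of catecholamine synthesis, rose with both, Dbh by log2 fold changes of 0.51 and 0.50 (limma adjusted p = 0.0158 and 0.0068) and Ddc by 0.38 and 0.42 (limma adjusted p = 0.0478 and 0.0178) for SE-BDEV and CON-BDEV. The sympathetic transcription factor genes Phox2a, Gata3 and Hand2 rose with CON-BDEVs, by 0.25, 0.37 and 0.24 (limma adjusted p = 0.0066, 0.0122 and 0.0135), and had 0.17, 0.25 and 0.16 with SE-BDEVs (limma adjusted p = 0.0969, 0.123 and 0.167). Stmn2, a microtubule regulator of growing neurites, fell with CON-BDEVs (−0.20; limma adjusted p = 0.0257) and had −0.20 with SE-BDEVs (limma adjusted p = 0.0646). The part of these marker shifts in the members' values was not tested. Both comparisons share the Vehicle libraries, so their values below are not independent of each other.

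Synapsins coat the vesicle surface and hold vesicles in reserve. Syn2 had 45.0, 46.8, 46.4 and 44.3 FPKM in SE-BDEV libraries, 43.8, 42.6, 45.1 and 45.8 FPKM in CON-BDEV libraries, and 39.0, 37.7, 39.9 and 38.2 FPKM in Vehicle libraries. All 8 vesicle-treated libraries were above all 4 Vehicle libraries, and the ranges of the vesicle groups overlapped each other. Syn2 rose with SE-BDEVs, by 0.23 ± 0.03 on the log2 scale (± standard error here and below; limma adjusted p = 0.0158), and with CON-BDEVs, by 0.19 ± 0.03 (limma adjusted p = 0.0133). The group means were 45.6 ± 1.15 FPKM in SE-BDEV, 44.3 ± 1.41 FPKM in CON-BDEV and 38.7 ± 0.981 FPKM in Vehicle (SD, n = 4 each). The CON-BDEV call held when any 1 of its 8 libraries was dropped, while the SE-BDEV call was lost without any 1 of the 4 Vehicle libraries (limma adjusted p = 0.0652 to 0.0764; 0.0138 to 0.0764 over all alternatives). With the replicate number as a block, the limma adjusted p for SE-BDEV was 0.0596. In the authors' deposited table Syn2 had a q-value of 0.0646 for SE-BDEV and 0.103 for CON-BDEV. Timp4, which shares the deposited locus of Syn2 (chromosome 6, 115084920 to 115232644, mm9), averaged 0.383 FPKM in SE-BDEV, 0.494 FPKM in CON-BDEV and 0.320 FPKM in Vehicle.

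The other synapsins did not pass. Syn1 ranged from 16.4 to 19.3 FPKM in SE-BDEV, 16.9 to 18.3 FPKM in CON-BDEV and 17.6 to 18.4 FPKM in Vehicle, and its log2 fold changes were −0.038 and −0.024 for SE-BDEV and CON-BDEV. Its deposited locus also spans Araf and Timp1. Syn3 ranged from 1.33 to 1.67 FPKM in SE-BDEV, 1.26 to 1.46 FPKM in CON-BDEV and 1.14 to 1.36 FPKM in Vehicle (log2 fold changes 0.14 and 0.070), at a level where precision is low, and Timp3 shares its locus. The ratio of Syn2 to Syn1 was 2.33 to 2.84 in SE-BDEV, 2.39 to 2.63 in CON-BDEV and 2.05 to 2.26 in Vehicle libraries. The log2 ratio was higher than in Vehicle by 0.277 with SE-BDEVs and 0.22 with CON-BDEVs. For both the two-sided exact permutation p was 0.0286, the smallest that 4 against 4 libraries can give, and 0.114 adjusted over the 16 tests of 8 pairs of relatives. At this smallest p, an adjusted p under 0.05 would need most of the 16 tests to reach it. The ratio uses the same Syn2 values as the limma test and is not separate evidence.

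Active zone proteins prime vesicles for release. Unc13a, which encodes Munc13-1 (chromosome 8, 74150612 to 74195656, mm9), had 34.7, 30.9, 33.4 and 36.2 FPKM in SE-BDEV libraries, 33.9, 32.9, 36.0 and 34.8 FPKM in CON-BDEV libraries, and 39.3, 38.9, 37.5 and 37.9 FPKM in Vehicle libraries. Every vesicle-treated library was below every Vehicle library. Unc13a fell with CON-BDEVs (log2 fold change −0.15 ± 0.03; limma adjusted p = 0.0405). With SE-BDEVs its log2 fold change was −0.18 ± 0.05 and missed the threshold (limma adjusted p = 0.114). The CON-BDEV call held in 1 of the 8 fits with a library left out, the one without CON-BDEV replicate 3, and the limma adjusted p ran from 0.0343 to 0.124 over all alternatives. With the replicate block it was 0.124. In the authors' deposited table Unc13a had a q-value of 0.234 for SE-BDEV and 0.233 for CON-BDEV.

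Rims2, a RIM scaffold gene, had 18.2, 19.9, 19.8 and 20.2 FPKM in SE-BDEV libraries, 18.0, 17.4, 17.9 and 18.9 FPKM in CON-BDEV libraries, and 20.1, 19.5, 20.1 and 19.5 FPKM in Vehicle libraries. Its CON-BDEV libraries lay below all Vehicle libraries (log2 fold change −0.13; limma adjusted p = 0.0865), while its SE-BDEV libraries overlapped them (−0.020; limma adjusted p = 0.865). Bsn had log2 fold changes of 0.077 with SE-BDEVs and 0.070 with CON-BDEVs, with overlapping libraries.

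Among the SNAREs, the synaptobrevin relative Vamp1 had the largest fold change of all 30 tested members in both comparisons. It had 3.35, 4.26, 3.23 and 3.43 FPKM in SE-BDEV libraries, 2.89, 4.03, 3.80 and 4.13 FPKM in CON-BDEV libraries, and 3.05, 2.79, 2.52 and 2.78 FPKM in Vehicle libraries. All SE-BDEV libraries were above all Vehicle libraries, and CON-BDEV replicate 1 was within the Vehicle range. The log2 fold changes were 0.27 ± 0.08 with SE-BDEVs (limma adjusted p = 0.171) and 0.31 ± 0.09 with CON-BDEVs (limma adjusted p = 0.0993). Without CON-BDEV replicate 1 the CON-BDEV value was 0.40, with a limma adjusted p of 0.0142, in a range of 0.0142 to 0.245 over all alternatives. The authors' deposited table gave Vamp1 a q-value of 0.131 for SE-BDEV and 0.00505 for CON-BDEV. In that table it was the 1 member of 30 below 0.05 for CON-BDEV, where 215 of all 11912 genes tested there were. For SE-BDEV 0 of 30 members were below 0.05, as were 140 of 11928 genes.

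Vamp2, the main synaptobrevin of neurons, had 37.3, 37.6, 40.9 and 37.5 FPKM in SE-BDEV libraries, 39.3, 38.8, 37.9 and 40.6 FPKM in CON-BDEV libraries, and 35.6, 36.5, 37.1 and 37.3 FPKM in Vehicle libraries. All vesicle-treated libraries lay above all Vehicle libraries by small margins, with log2 fold changes of 0.064 and 0.095 for SE-BDEV and CON-BDEV (limma adjusted p = 0.482 and 0.141). Without SE-BDEV replicate 3 the SE-BDEV value was 0.033. Snap25 lay on the other side, with 69.8, 66.9, 66.9 and 73.0 FPKM in SE-BDEV libraries, 69.6, 71.2, 72.6 and 68.3 FPKM in CON-BDEV libraries, and 74.9, 73.6, 74.7 and 75.6 FPKM in Vehicle libraries. Every vesicle-treated library was below every Vehicle library, with log2 fold changes of −0.11 and −0.084 for SE-BDEV and CON-BDEV (limma adjusted p = 0.185 and 0.133). Stx1a, the syntaxin of the plasma membrane, overlapped between groups, with log2 fold changes of 0.050 and 0.011.

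Complexins bind the assembled SNARE bundle. Cplx2 had 52.8, 41.7, 46.4 and 49.7 FPKM in SE-BDEV libraries, 51.0, 45.9, 47.0 and 44.4 FPKM in CON-BDEV libraries, and 54.2, 51.6, 51.2 and 55.0 FPKM in Vehicle libraries. The CON-BDEV libraries were all below the Vehicle libraries, while SE-BDEV replicate 1 was among them. The log2 fold changes were −0.15 ± 0.06 with SE-BDEVs (limma adjusted p = 0.289) and −0.17 ± 0.04 with CON-BDEVs (limma adjusted p = 0.0686). Without SE-BDEV replicate 2 the SE-BDEV value was −0.094 (limma adjusted p = 0.290). Without CON-BDEV replicate 1 the CON-BDEV value was −0.21, with a limma adjusted p of 0.0143, in a range of 0.0143 to 0.178 over all alternatives. Cplx1 had 92.5, 78.4, 93.8 and 93.6 FPKM in SE-BDEV libraries, 94.8, 86.3, 88.5 and 89.5 FPKM in CON-BDEV libraries, and 86.3, 86.5, 86.4 and 91.6 FPKM in Vehicle libraries. Its groups overlapped, with log2 fold changes of 0.027 for SE-BDEV and 0.033 for CON-BDEV. Without SE-BDEV replicate 2, its lowest library, the SE-BDEV value was 0.089 (limma adjusted p = 0.141), and without any 1 of the other 3 it was 0.0036 to 0.010. The ratio of Cplx2 to Cplx1 was 0.495 to 0.571 in SE-BDEV, 0.496 to 0.538 in CON-BDEV and 0.592 to 0.627 in Vehicle libraries, without overlap between vesicle and Vehicle libraries (two-sided exact permutation p = 0.0286 for each, the smallest possible, and 0.114 adjusted over the 16 tests). The Cplx2 to Cplx1 ratio also uses the same values as the limma tests of both genes. Stxbp5, whose product tomosyn competes for SNAREs, had log2 fold changes of −0.014 and −0.044. The other 6 pairs of relatives, Sypl with Syp, Syngr1 with Syngr3, Sv2c with Sv2a, Vamp1 with Vamp2, Napb with Napa and Rab3c with Rab3a, had exact permutation p-values from 0.0571 to 1.

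**Figure D2:**
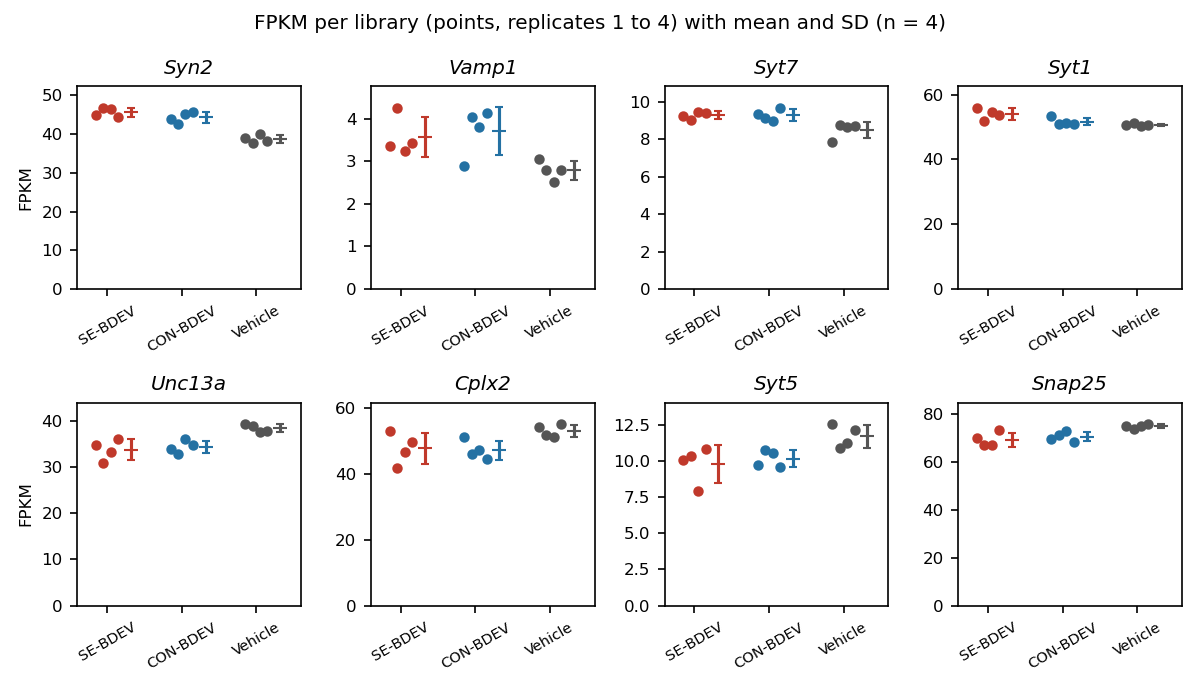
FPKM of 8 members in each library (points, replicates 1 to 4 from left to right; dash and bar, mean and SD of n = 4), in SE-BDEV, CON-BDEV and Vehicle, with vertical axes from 0. The upper row holds genes with higher means in both vesicle groups and the lower row genes with lower means. Both vesicle groups of Syn2, Syt7, Unc13a, Syt5 and Snap25 do not overlap with Vehicle, and all shifts are small beside the level.

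Synaptotagmins bind calcium. Syt1, the fast sensor, had 56.0, 51.8, 54.6 and 53.6 FPKM in SE-BDEV libraries, 53.3, 50.9, 51.4 and 51.1 FPKM in CON-BDEV libraries, and 50.6, 51.2, 50.2 and 50.5 FPKM in Vehicle libraries. All SE-BDEV libraries were above the Vehicle libraries (log2 fold change 0.091; limma adjusted p = 0.233), and the CON-BDEV libraries overlapped them (0.029; limma adjusted p = 0.607). Syt7, a slower sensor of high calcium affinity, had 9.21, 9.02, 9.48 and 9.42 FPKM in SE-BDEV libraries, 9.37, 9.12, 8.96 and 9.68 FPKM in CON-BDEV libraries, and 7.86, 8.74, 8.65 and 8.70 FPKM in Vehicle libraries. Every vesicle-treated library was above every Vehicle library, with a log2 fold change of 0.12 for each kind (limma adjusted p = 0.291 for SE-BDEV and 0.207 for CON-BDEV). Syt5 went the other way, with 10.1, 10.4, 7.92 and 10.9 FPKM in SE-BDEV libraries, 9.73, 10.8, 10.5 and 9.61 FPKM in CON-BDEV libraries, and 12.6, 10.9, 11.2 and 12.1 FPKM in Vehicle libraries. Its vesicle-treated libraries were all below the Vehicle libraries, by log2 fold changes of −0.24 ± 0.09 with SE-BDEVs and −0.19 ± 0.05 with CON-BDEVs (limma adjusted p = 0.225 and 0.0985). Without SE-BDEV replicate 3, the lowest library, the SE-BDEV value was −0.15 (limma adjusted p = 0.339). Syt11, which lacks calcium binding, was at 38.02 to 39.7 FPKM in SE-BDEV, 38.4 to 40.1 FPKM in CON-BDEV and 38.4 to 40.2 FPKM in Vehicle. Syt4, a granule synaptotagmin, had 24.8, 37.3, 25.0 and 24.0 FPKM in SE-BDEV libraries, 21.5, 29.7, 27.3 and 26.6 FPKM in CON-BDEV libraries, and 29.5, 28.1, 26.9 and 28.6 FPKM in Vehicle libraries. SE-BDEV replicate 2 lay above the Vehicle range, as CON-BDEV replicate 2 did by a small margin, and the other 3 SE-BDEV libraries lay below it. The log2 fold change was −0.048 with SE-BDEVs (limma adjusted p = 0.885) and −0.11 with CON-BDEVs (limma adjusted p = 0.476). Without SE-BDEV replicate 2 the SE-BDEV value was −0.19 (limma adjusted p = 0.0360). In that fit 315 of all genes passed, against 104 with every library kept.

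Vesicle membrane genes encode the glycoproteins and tetraspan proteins that sit in the vesicle membrane. Of the 7 tested, 0 passed in limma, where 0.919% of all genes did for SE-BDEV and 2.84% for CON-BDEV. The 7 genes had log2 fold changes from −0.098 to 0.12 for SE-BDEV and −0.097 to 0.090 for CON-BDEV. At an unadjusted limma p under 0.05, 1 passed for SE-BDEV (Sv2c) and 0 for CON-BDEV, where 14.8% and 19.1% of all genes did. Sv2c had 49.6, 46.1, 51.7 and 51.1 FPKM in SE-BDEV libraries, 52.6, 41.9, 51.1 and 46.9 FPKM in CON-BDEV libraries, and 48.1, 44.3, 45.2 and 45.3 FPKM in Vehicle libraries. SE-BDEV replicate 2 and CON-BDEV replicates 2 and 4 lay inside or below the Vehicle range (log2 fold changes 0.12 and 0.068; limma adjusted p = 0.247 and 0.592). Without CON-BDEV replicate 2 the CON-BDEV value was 0.13 (limma adjusted p = 0.137), and without replicate 1 it was 0.024. Sv2a had 9.05, 8.09, 8.93 and 9.40 FPKM in SE-BDEV libraries, 9.17, 9.87, 9.21 and 8.99 FPKM in CON-BDEV libraries, and 8.90, 8.69, 8.28 and 8.85 FPKM in Vehicle libraries. Only its CON-BDEV libraries were all above the Vehicle libraries (log2 fold change 0.090; limma adjusted p = 0.297), and the SE-BDEV value was 0.026. Syp, the synaptophysin gene and a common marker of nerve endings, was at 31.4 to 32.9 FPKM in SE-BDEV, 31.3 to 34.0 FPKM in CON-BDEV and 29.8 to 33.5 FPKM in Vehicle. Its relatives Sypl, Syngr1 and Syngr3 and the carrier protein gene Scamp5 also overlapped between groups.

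Rab3 proteins escort vesicles to the release site, and NSF with its adaptors recycles SNAREs. Rab3c had 44.1, 47.4, 44.0 and 44.2 FPKM in SE-BDEV libraries, 43.1, 42.0, 43.1 and 42.9 FPKM in CON-BDEV libraries, and 42.4, 43.4, 39.9 and 42.3 FPKM in Vehicle libraries. All its SE-BDEV libraries were above every library of both other groups (log2 fold change 0.094 against Vehicle, limma unadjusted p = 0.0375 and adjusted p = 0.302; 0.068 against CON-BDEV, limma adjusted p = 1.00). Rab3a was at 16.4 to 22.9 FPKM in SE-BDEV, 19.3 to 20.9 FPKM in CON-BDEV and 19.1 to 23.0 FPKM in Vehicle; its locus is shared with Mpv17l2. Nsf had 43.1, 41.5, 42.4 and 44.8 FPKM in SE-BDEV libraries, 42.0, 41.8, 42.5 and 40.9 FPKM in CON-BDEV libraries, and 43.3, 42.5, 44.5 and 44.3 FPKM in Vehicle libraries. Nsf, Napa and Napb had negative log2 fold changes in both comparisons, from −0.094 to −0.023 with SE-BDEVs and from −0.082 to −0.060 with CON-BDEVs, and 0 of the 3 passed in limma in either, adjusted (0.919% and 2.84% of all genes) or at an unadjusted p under 0.05 (14.8% and 19.1% of all genes).

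**Figure D3:**
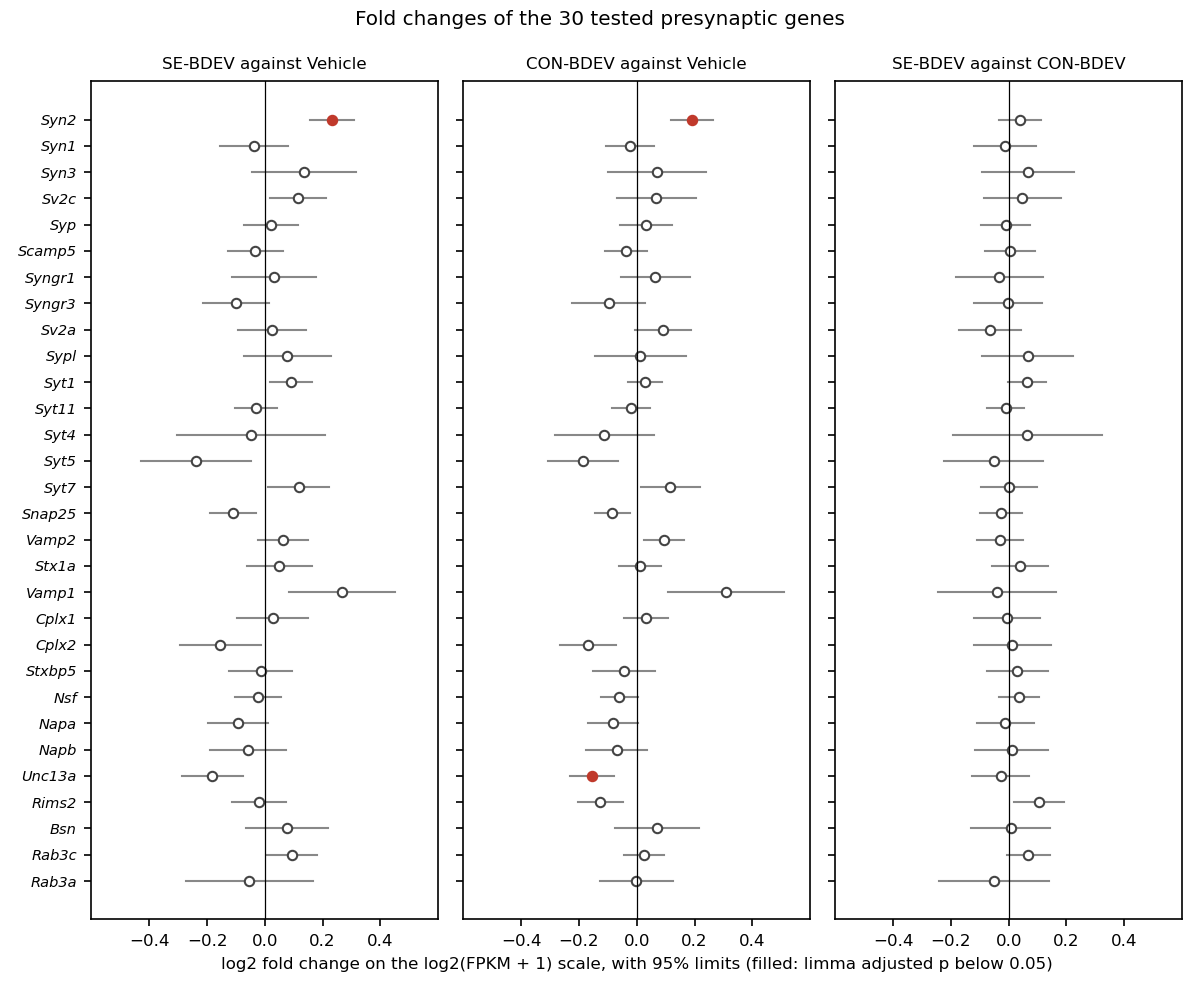
Log2 fold change of the 30 tested members on the log2(FPKM + 1) scale (horizontal axis) with 95% limits, for SE-BDEV against Vehicle, CON-BDEV against Vehicle and SE-BDEV against CON-BDEV; filled points passed a limma adjusted p of 0.05. Syn2 is filled in both comparisons with Vehicle and Unc13a in that of CON-BDEV, and the points of the third panel stay between −0.06 and 0.11.

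Groups that do not overlap were also counted over the 30 tested members, without a model but from the same values as the tests. With SE-BDEVs, 6 members (Syn2, Syt1, Syt7, Vamp1, Vamp2 and Rab3c) had all 4 libraries above Vehicle, where 5.77% of all genes tested did. The 3 members with all SE-BDEV libraries below Vehicle were Syt5, Snap25 and Unc13a, where 4.39% of all genes were. With CON-BDEVs, 4 members (Syn2, Sv2a, Syt7 and Vamp2) lay wholly above Vehicle, where 5.68% of all genes did. The 5 members wholly below it were Syt5, Snap25, Cplx2, Unc13a and Rims2, where 6.24% of all genes were.

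The direct comparison asked whether SE-BDEVs and CON-BDEVs differ in their effect on these genes. In limma 0 of 30 members passed, as did 0% of 11312 genes, while 1 member and 2.62% of genes had an unadjusted p under 0.05. Without a test, 16 of 30 had the higher mean log2 level in SE-BDEV, where 54.3% of all genes did. That member was Rims2, whose 95% limits on the log2 scale ran from 0.02 to 0.19 (log2 fold change 0.11; limma adjusted p = 1.00), and whose libraries of both groups overlapped. Rab3c was the 1 member whose libraries did not overlap, where 0.760% of all genes were higher in every SE-BDEV library; 0 members were lower in every one, where 0.628% of genes were. Over all 30 members, the 95% limits of the difference reached from −0.24 on the log2 scale, for Vamp1, to 0.32, for Syt4, with a median half-width of 0.11. For Syn2 the difference was 0.041 (95% limits −0.03 to 0.11), and for Unc13a −0.027 (95% limits −0.13 to 0.07). These limits bound the differences and do not show that both vesicle kinds act alike.

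A second list held 85 other genes of exocytosis, the active zone and vesicle recycling, of which 84 were in the tables and 58 had enough signal to test. With SE-BDEVs 1 rose and 0 fell (1.72%, beside 0.919% of all genes), and with CON-BDEVs 2 rose and 1 fell (5.17%, beside 2.84% of all genes). At an unadjusted limma p under 0.05, 4 were higher and 3 lower with SE-BDEVs, and 7 were higher and 7 lower with CON-BDEVs, where 14.8% and 19.1% of all genes passed. Syt6, another synaptotagmin gene, rose in both, to 62.8 FPKM in SE-BDEV and 60.9 FPKM in CON-BDEV, against 51.0 FPKM in Vehicle (log2 fold changes 0.29 and 0.25; limma adjusted p = 0.0158 and 0.00429). Syt17, a related gene, rose with CON-BDEVs, to 16.1 FPKM against 12.5 FPKM in Vehicle (log2 fold change 0.33; limma adjusted p = 0.0470). With SE-BDEVs its mean was 15.4 FPKM (0.28; limma adjusted p = 0.0537). The medians of the 58 genes were 0.011 for SE-BDEV and −0.0051 for CON-BDEV on the log2 scale. Without any 1 of the 4 Vehicle libraries, the second list had 0 calls in limma for SE-BDEV and 1 for CON-BDEV.

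**Figure D4:**
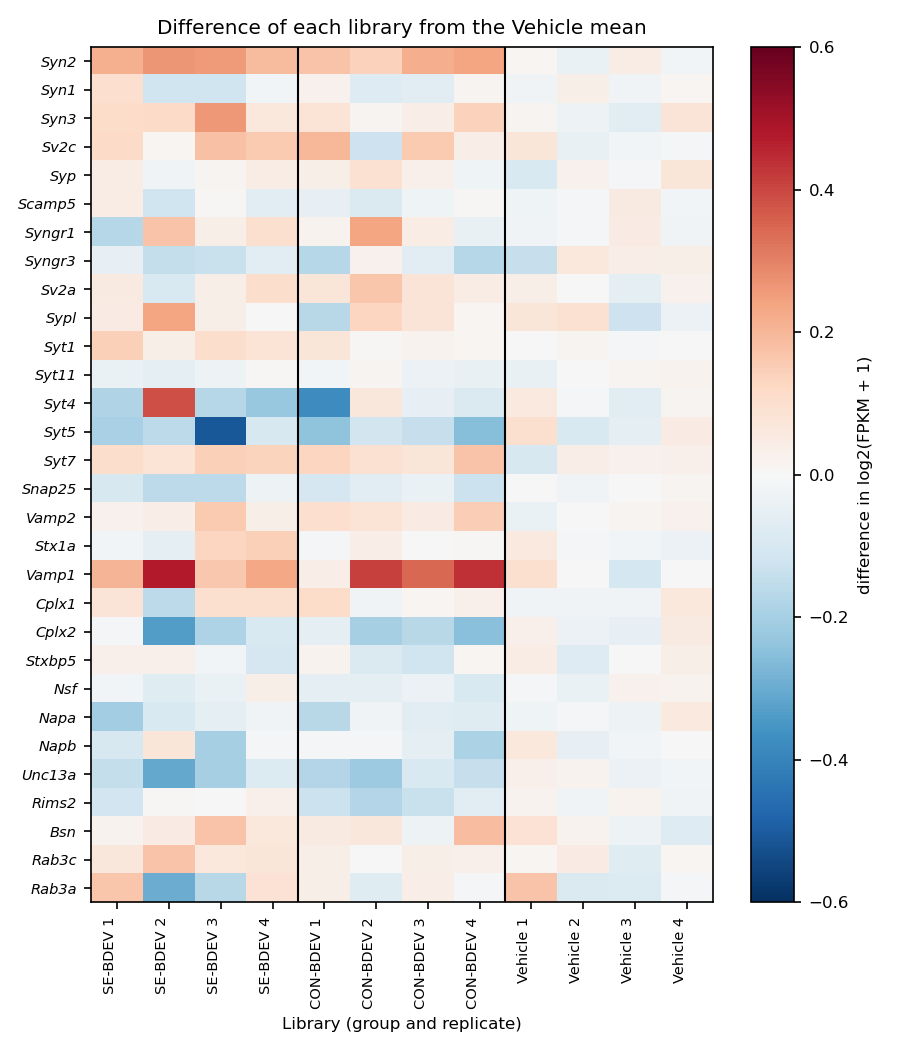
Difference of each library from the Vehicle mean in log2(FPKM + 1) (colour, red higher, blue lower) for the 30 tested members (rows) in the SE-BDEV, CON-BDEV and Vehicle libraries (columns). Syn2 is red and Unc13a blue in all 8 vesicle-treated libraries. SE-BDEV replicate 2 is the highest or lowest of its group for 23 of the 30 members. This count is 21 for CON-BDEV replicate 2, 20 for Vehicle replicate 1 and 8 to 18 for the other libraries.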

How the data were processed

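The authors' FPKM values, 1 per gene and library, were deposited in 2 tables. TopHat2, Cuffdiff and build mm9 are named in the submitters' processing notes; versions, the annotation and the strand setting of counting were not found there. Separate deposited tables hold, per the file headers, the authors' log2 fold changes, p-values and q-values per gene. Overlapping genes may share reads. The Vehicle columns of both tables differed by a factor within 0.0335% of 1, so the tables were put on 1 scale, with Vehicle as the mean of both. Library totals are not part of the tables, and depth was estimated from FPKM values up to 0.05 on the reading that they stand for 1 fragment.

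Genes that averaged 1 FPKM or more were put on a log2(FPKM + 1) scale and tested with limma (version 3.58.1; R 4.3.3; empirical Bayes with a trend, two-sided, Benjamini-Hochberg over all genes tested). Fold changes on this scale understate low genes. Each vesicle group was fitted with Vehicle in its own table (8 libraries), and SE-BDEV against CON-BDEV over 12 libraries. The fit was tested on simulated data. Values per library are given for members past the threshold, for members whose libraries do not overlap with Vehicle, and for the highest member of each role; Syt4, Slc18a2, the tests of markers, the ratios and the motifs were added after the values were seen. Promoters on chromosome 18 were not used. Of the second list, 1 gene past the threshold is counted but not reported here. Members and lists were chosen with earlier results of these data known. Alternatives were another pseudocount, other filters, median scaling, a replicate block, no trend and leaving out each library. Figures used matplotlib 3.10.9.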

Additional observations from a re-analysis of the deposited data

Results flagged for a closer look

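In 8 of the 90 groups of 4 libraries checked over the tested members, 1 library stood apart from the other 3 by more than Dixon's 95% criterion; chance flags about 1 group in 20. Of these, 3 were in SE-BDEV replicate 2, where Syt4 was at 37.3 FPKM against 24.0 to 25.0 FPKM in the other SE-BDEV libraries, Cplx1 at 78.4 FPKM against 92.5 to 93.8 FPKM, and Rab3c at 47.4 FPKM against 44.0 to 44.2 FPKM. Vamp2 was at 40.9 FPKM in SE-BDEV replicate 3, against 37.3 to 37.6 FPKM in the others. In the Vehicle group, replicate 1 was low for Syngr3 (16.8 FPKM, against 19.1 to 19.5 FPKM) and Syt7 (7.86 FPKM, against 8.65 to 8.74 FPKM), replicate 3 was high for Scamp5 (33.1 FPKM, against 31.3 to 31.6 FPKM), and replicate 4 was high for Cplx1 (91.6 FPKM, against 86.3 to 86.5 FPKM).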

How the results depend on the processing

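Direction and side of the threshold held for 654 of 687 refitted log2 fold changes of the 15 members named by rule. Most of the 687 were uncalled in the main fit. Syn2 kept its call in 8 of 14 alternatives with SE-BDEV and in 14 of 14 with CON-BDEV. Unc13a kept its CON-BDEV call in 4 of 14. Of the 687, 16 lost and 2 gained a call. The sign turned in 15, all uncalled, of which 14 concern SE-BDEV against CON-BDEV: Syt7 was −0.0037 under median scaling, and with 1 library left out it ran from −0.015 to 0.019, Cplx2 from −0.037 to 0.074, Cplx1 from −0.030 to 0.055, Unc13a from −0.060 to 0.014, Syt5 from −0.10 to 0.037, Sv2c from −0.016 to 0.091 and Vamp1 from −0.13 to 0.0030. For SE-BDEV against Vehicle, Rims2 ran from −0.036 to 0.012. The small uncalled values of Nsf and Sv2a for SE-BDEV, and of Cplx1, Syt1 and Rab3c for CON-BDEV, also moved by over 1.5 times with 1 library left out.

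For SE-BDEV against Vehicle, 1 member, 104 genes and 1 gene of the second list passed. With no filter on low values these were 0, 0 and 0 in limma (2021 genes at an unadjusted p under 0.05), and with the replicate block 0 members and 48 genes. The second list had 3 at a filter of 5 FPKM and 2 under median scaling. With 1 library left out, members ran from 0 to 2, genes from 5 to 315 (5 to 16 without a Vehicle library, 55 without SE-BDEV replicate 1, 315 without replicate 2 and 50 without replicate 3) and the second list from 0 to 2. For CON-BDEV against Vehicle, 2 members, 321 genes and 3 of the second list passed; with no filter 1, 176 and 1, with the replicate block 1, 135 and 1, and without the trend 1, 183 and 1. The second list had 5 at a filter of 5 FPKM. With 1 library left out, members ran from 1 to 3, genes from 134 to 556 (134 to 163 without a Vehicle library, 556 without CON-BDEV replicate 1, 201 without replicate 3 and 156 without replicate 4) and the second list from 1 to 4. SE-BDEV against CON-BDEV gave 0 in limma throughout. The cause of these shifts was not tested, apart from the change in genes tested or in libraries that an alternative makes.

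Replicate numbers were not taken as pairs, and the labels do not say what they stand for. Deviations from the group means correlated across genes at −0.10 to 0.04 for SE-BDEV with Vehicle and −0.06 to 0.02 for CON-BDEV with Vehicle. For SE-BDEV with CON-BDEV the values were 0.20 and 0.30 in replicates 1 and 2, and −0.07 and −0.12 in replicates 3 and 4. Among CON-BDEV libraries, the best match of SE-BDEV replicates 1 and 2 was the library of the same number. FPKM carries no counts, so counting error could not be separated from the spread between libraries.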

Other observations

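Libraries of the same replicate number in both vesicle groups were set side by side over the 30 tested members. In replicate 2, 19 of 30 members lay on the same side of their group mean in SE-BDEV and CON-BDEV, and in replicate 1, 18 did, while in replicates 3 and 4 it was 7 each. In replicate 2 of both groups Vamp1 (4.26 FPKM in SE-BDEV and 4.03 FPKM in CON-BDEV), Syt4 (37.3 and 29.7 FPKM) and Syngr1 (25.9 and 27.2 FPKM) were above their group means of 3.57 and 3.71, 27.8 and 26.3, and 23.6 and 24.1 FPKM. Cplx1 (78.4 and 86.3 FPKM), Unc13a (30.9 and 32.9 FPKM) and Sv2c (46.1 and 41.9 FPKM) were the lowest of their group in both. The labels do not say what a replicate number stands for, and these genes were picked after their values were seen.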
